A study of Mus musculus with 11 samples.

Results

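The genes described here are 32 markers of microglia and macrophages, taken by symbol from a named list and found in every library, of 45802 genes in all. They comprise 3 genes of resident microglia (P2ry12, Tmem119 and Cx3cr1) and 29 genes shared more widely among macrophages and other myeloid cells. A filter on low values, an FPKM (fragments scaled to transcript length and to the mapped fragments of the library) of at least 1 in at least 2 libraries, kept 31 of them for testing, and Cd53 was left out. They were measured in RNA from translating ribosome affinity purification, in which a tagged ribosomal protein is pulled down together with the mRNA it is translating. The tag was eGFP on L10a, driven from the VE-cadherin promoter, which is active in endothelium, so by design the markers belong to cells without the tag. All 4 groups were adult C57BL/6 mice of a line with this transgene. They were tumours of Eltd1-/- mice (n = 2), tumours of wild type mice (n = 3), healthy brain of wild type mice (n = 3) and healthy brain of Eltd1-/- mice (n = 3). The tumours grew from GL261, a mouse glioma line, injected intracranially. The protocol names 3 mice for every group, and the third Eltd1-/- tumour was not analysed here.

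Microglia are the macrophages of the brain itself. They depend on signalling through the CSF1 receptor, are specified by the transcription factor PU.1, and carry P2ry12, Tmem119 and Cx3cr1 in the resting state. Macrophages that arise from blood monocytes share with microglia the complement chains of C1q, the Fc receptors and their ITAM adaptors, the scavenger receptors and the lysosomal proteases, and both kinds of cell gather in gliomas.

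Across libraries, FPKM sums ran from 477911 to 641665, the number of genes above 0 from 8978 to 15433, and sequencing depth is unknown. Wild type tumour replicate 2 had 42.7% of the tested genes at 0, against at most 25.7% in the other libraries, and 10 of the 32 members were among its zeros. A value of 0 is given below as listed, since it can be a failed estimate. Wild type tumour replicate 3 held more neuronal RNA than the other tumours, with neuron markers summing to 2871 FPKM against 96.0 to 986 FPKM. The 11 endothelial markers summed to between 1246 and 1925 FPKM in brain and between 287 and 806 FPKM in tumour, and the 7 neuron markers to between 3853 and 5613 FPKM in brain. Unpurified input RNA was not analysed here. Adgrl4, the present name of Eltd1, was lower in every Eltd1-/- library than in any wild type library of the same tissue, at 5.82 and 11.5 FPKM against 27.4 to 192 FPKM in tumour and at 21.6 to 23.6 FPKM against 82.7 to 166 FPKM in brain.

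Promoters are shown for the 5 members with an entry that were called higher in tumour in both genotypes, and for Cx3cr1, a resident gene called in neither, because the data bear on genes that move together. They are the 250 bases before a transcript start, from RefSeq on GRCm38.p6, written 5′ to 3′ on the strand of the gene. Capitals mark GAGGAA, the core of the motif that PU.1 binds, and the element that interferon regulatory factors bind (GAAA, any 2 bases, GAAA), each searched on both strands. The windows are chr4:136892915-136893164 (minus strand) for C1qc, chr3:95526536-95526785 (plus) for Ctss, chr3:96293970-96294219 (minus) for Fcgr1, chr6:49036268-49036517 (plus) for Gpnmb, chr10:117282273-117282522 (minus) for Lyz2 and chr9:120068297-120068546 (minus) for Cx3cr1.
C1qc: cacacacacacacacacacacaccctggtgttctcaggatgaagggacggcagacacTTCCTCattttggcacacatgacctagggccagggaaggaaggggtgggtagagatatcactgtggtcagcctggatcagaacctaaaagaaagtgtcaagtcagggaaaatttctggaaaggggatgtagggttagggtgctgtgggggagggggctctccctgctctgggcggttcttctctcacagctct
Ctss: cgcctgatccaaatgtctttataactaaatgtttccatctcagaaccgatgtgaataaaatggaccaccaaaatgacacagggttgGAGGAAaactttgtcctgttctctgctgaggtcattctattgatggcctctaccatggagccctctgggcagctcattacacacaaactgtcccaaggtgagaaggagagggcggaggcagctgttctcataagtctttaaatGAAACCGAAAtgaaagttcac
Fcgr1: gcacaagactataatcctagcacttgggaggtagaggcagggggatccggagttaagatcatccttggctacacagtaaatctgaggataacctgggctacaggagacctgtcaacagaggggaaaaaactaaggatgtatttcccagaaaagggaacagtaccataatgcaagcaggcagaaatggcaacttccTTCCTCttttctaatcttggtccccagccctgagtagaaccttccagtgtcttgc
Gpnmb: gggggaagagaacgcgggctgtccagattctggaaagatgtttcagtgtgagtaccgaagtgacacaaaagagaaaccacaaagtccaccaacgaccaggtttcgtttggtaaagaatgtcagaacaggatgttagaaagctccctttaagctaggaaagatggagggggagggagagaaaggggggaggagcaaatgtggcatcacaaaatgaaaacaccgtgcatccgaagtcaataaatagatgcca
Lyz2: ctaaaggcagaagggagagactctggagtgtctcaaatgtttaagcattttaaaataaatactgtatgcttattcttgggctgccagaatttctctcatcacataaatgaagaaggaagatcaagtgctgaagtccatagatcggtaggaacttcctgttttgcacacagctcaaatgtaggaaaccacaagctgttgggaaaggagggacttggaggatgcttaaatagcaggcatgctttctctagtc
Cx3cr1: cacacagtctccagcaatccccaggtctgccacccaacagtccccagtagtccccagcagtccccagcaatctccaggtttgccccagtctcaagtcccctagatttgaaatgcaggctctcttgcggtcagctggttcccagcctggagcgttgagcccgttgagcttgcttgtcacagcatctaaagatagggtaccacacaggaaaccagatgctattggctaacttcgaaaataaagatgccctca
The PU.1 core began 193 bases before the start in C1qc and 55 bases before it in Fcgr1, both on the reverse strand, and 164 bases before it in Ctss. The interferon element began 21 bases before the start in Ctss. The windows of Gpnmb, Lyz2 and Cx3cr1 held neither set of letters. Of the 32 members, 24 had a promoter entry, with 30 promoters. The core was in 17 of these 30 (56.7%), against 23.3% of all 32851 promoters searched in the same way. The interferon element was in 3 of the 30 (those of Aif1, Ctss and Spp1), or 10%, against 2.98% of all. The 2 motifs do not overlap in the windows shown. These matches describe letters and not binding.

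Tumours of wild type mice were compared with wild type brain to ask which macrophage transcripts differ in the vessel-directed pulldown of a glioma. Of the 32 members, 10 were higher in tumour, 0 were lower and 21 tested members did not pass (limma, adjusted p under 0.05 over all genes), where 7.70% of all 15604 tested genes were called higher and 11.7% lower (19.4% either way). With upper quartile or quantile scaling the higher share of all calls rose from 39.7% to 51.8% or 52.2%. Gpnmb, a membrane glycoprotein of lipid-laden macrophages and of some tumour cells, passed with the smallest adjusted p, followed by the lysosomal proteins Lyz2 and Ctss, the C1q chain C1qc, the leukocyte phosphatase Ptprc, Trem2, Tmem119, C1qa, Fcgr1 and Cd84. The median log2 difference of the 31 tested members was 1.68, against -0.26 over all genes. An unadjusted p under 0.05 was reached by 15 members, against 34.4% of all genes. In 10 of 32 members every tumour library lay above every brain library and in 0 below, against 12.7% and 19.8% of all tested genes. In Eltd1-/- mice 8 members were higher in tumour and 0 lower, where 4.79% of all genes were called higher and 2.29% lower (7.08% either way), and the median was 2.41 against -0.18. An unadjusted p under 0.05 was reached by 20 members, against 24.6% of all genes. There 24 of 32 members had both tumours above all 3 brains and 1 had both below, where 22.0% and 28.6% of all genes lay so.

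C1qa, C1qc, Ctss, Fcgr1, Gpnmb and Lyz2 passed in both genotypes. Cd84, Ptprc, Tmem119 and Trem2 passed in wild type only, and Fcer1g and Msr1 in Eltd1-/- only. The difference of the tissue effects between genotypes passed for 0 of these 6 (limma), 1 of them, Fcer1g, having an unadjusted p under 0.05. Over both genotypes, all 5 tumours lay above all 6 brains for 9 members (C1qa, C1qc, Trem2, Fcgr1, Csf1r, Lyz2, Ctss, Gpnmb and Ptprc), against 8.73% of all genes. Among the called members, Fcer1g, Gpnmb, Msr1 and Ptprc reached the filter on low values only through their tumour libraries. The direction of these calls is therefore not independent of the filter. With no filter other than a value above 0 in any library, the calls of Gpnmb, Msr1 and Ptprc held and that of Fcer1g was lost. Msr1, at 0 in all brains, entered that fit too only through its tumour libraries, so for Msr1 this does not settle the dependence. In RNA pulled down from tissue, more cells of a type and more RNA per cell cannot be told apart.

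**Figure D1:**
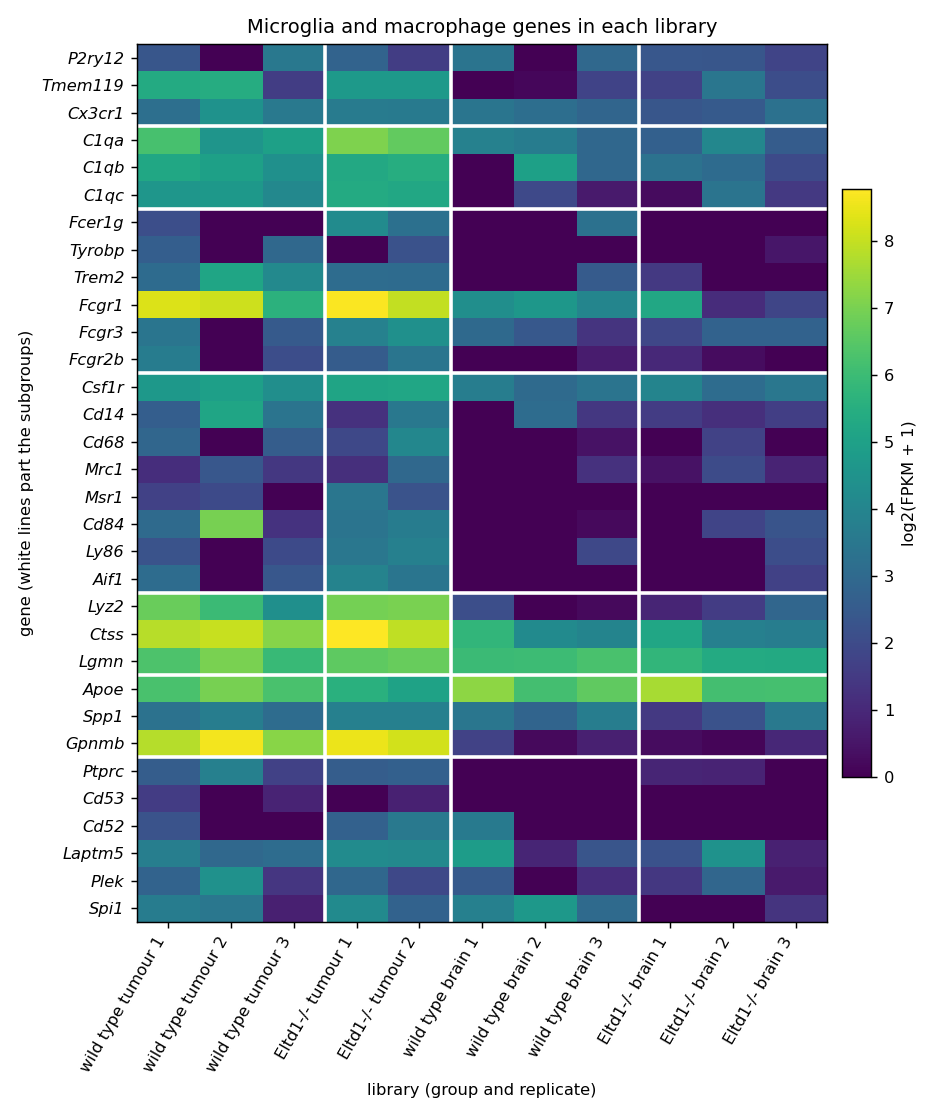
Level of the 32 members, as log2(FPKM + 1), in each of the 11 libraries, with the libraries in columns by group and white lines between subgroups of genes and between groups of libraries. Gpnmb, Ctss, Fcgr1 and Lyz2 are bright in the 5 tumour columns, and 10 members are at 0 in wild type tumour replicate 2.

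**Figure D2:**
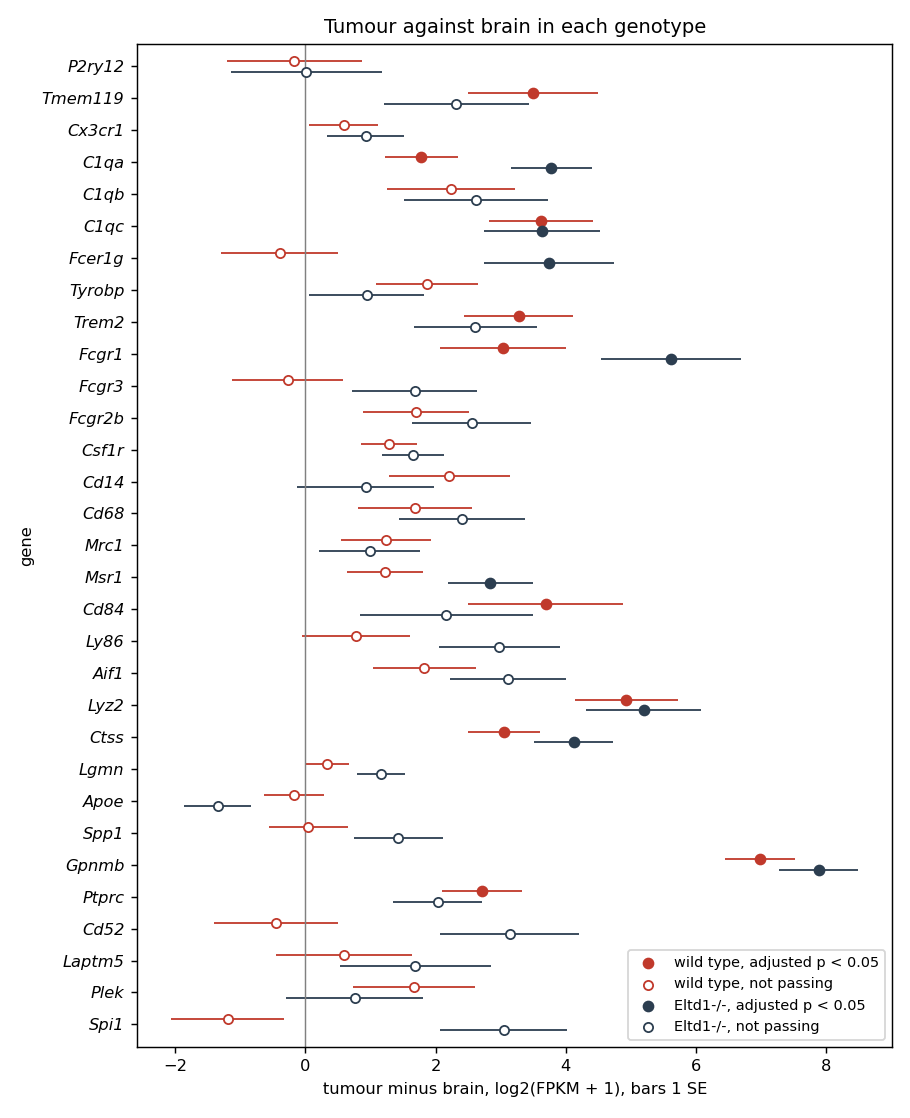
Tumour minus brain on the log2(FPKM + 1) scale for the 31 tested members in wild type (red) and Eltd1-/- mice (dark), with bars of 1 SE and filled points where the adjusted p was under 0.05. Filled points number 10 in wild type and 8 in Eltd1-/-, all on the tumour side, while P2ry12 lies near 0 in both; values of genes listed at 0 throughout a group depend on the pseudocount.

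Of the 3 resident microglia genes, 1 (Tmem119) was higher in wild type tumours and 0 passed in Eltd1-/- mice. P2ry12, the ADP receptor that guides microglial processes, was at 4.07, 0 and 10.3 FPKM in wild type tumours and 9.51, 0 and 6.85 FPKM in wild type brains, and at 5.96 and 1.99 FPKM in Eltd1-/- tumours and 4.23, 4.13 and 2.45 FPKM in Eltd1-/- brains. Tumour and brain overlapped in both genotypes, with log2 differences of -0.17 (SE 1.03; limma adjusted p = 0.928) and 0.01 (SE 1.16; adjusted p = 1.00). P2ry12 lies at chr3:59216271-59262985 inside Med12l, a gene transcribed across it, and the use of strand in quantification is unstated, so its value is uncertain. Med12l itself was at 0 to 9.97 FPKM in tumours and 6.67 to 21.5 FPKM in brains, and its part in the P2ry12 values was not tested. The same doubt holds where Cx3cr1, Csf1r, Cd84 and Laptm5 overlap long noncoding RNA genes (Gm33858, Gm52352, Gm51686 and Gm38599), where Ctss overlaps the pseudogene Hmgb1-ps5, and where Fcgr3, Csf1r and Mrc1 hold small RNA genes.

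Cx3cr1, the receptor for neuronal fractalkine, was listed above 0 in every library. It stood at 13.3 ± 6.97 FPKM in wild type tumours (8.14, 21.3 and 10.6) and 7.98 ± 1.64 FPKM in wild type brains (9.62, 7.95 and 6.35; SD, n = 3 and 3), and the groups overlapped. In Eltd1-/- mice it was at 11.7 and 11.1 FPKM in tumours and 4.15, 4.58 and 8.75 FPKM in brains, without overlap. The log2 differences of 0.58 (SE 0.53) and 0.92 (SE 0.60) did not pass (limma adjusted p = 0.476 and 0.372).

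Tmem119, a membrane protein used as a microglia marker, was at 40.0, 42.3 and 2.01 FPKM in wild type tumours and 0, 0.106 and 2.39 FPKM in wild type brains. It passed with a log2 difference of 3.49 (SE 1.00, limma adjusted p = 0.0315), although wild type tumour replicate 3 lay below wild type brain replicate 3. In Eltd1-/- mice it was at 25.9 and 25.5 FPKM in tumours and 2.35, 9.97 and 3.22 FPKM in brains, without overlap and without passing (2.31, SE 1.11, adjusted p = 0.223). The wild type call did not survive the removal of wild type tumour 1 (adjusted p = 0.111) or 2 (0.0962), or of wild type brain 1 (0.0882) or 2 (0.0846).

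Together the 3 resident genes summed to between 22.9 and 63.6 FPKM in the 5 tumours and between 8.06 and 19.1 FPKM in the 6 brains, with Tmem119 supplying most of the tumour sum in 4 of the 5 tumours. The other 29 genes summed to between 661 and 1897 FPKM in tumours and between 186 and 396 FPKM in brains. The resident share of the sum over all 32 genes was 2.25% to 3.83% in tumours and 2.81% to 8.04% in brains. The mean log2(FPKM + 1) of the 29 genes minus that of the 3 resident genes was between 0.23 and 1.02 in the 5 tumours. In brain it was below 0 in 5 of the 6 libraries, at -0.97 to -0.34, and 0.58 in wild type brain replicate 2, where P2ry12 was listed at 0. These sums are descriptions. The 4 genes that weighed most in each library carried 61.5% to 70.0% of the sum in tumours and 63.3% to 85.1% in brains. The highest means in brain were those of Apoe (108 FPKM in wild type and 114 FPKM in Eltd1-/-) and Lgmn (67.2 and 44.7 FPKM). Neither gene is limited to myeloid cells, so the resident share in brain is set against a sum that other cells can feed.

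**Figure D3:**
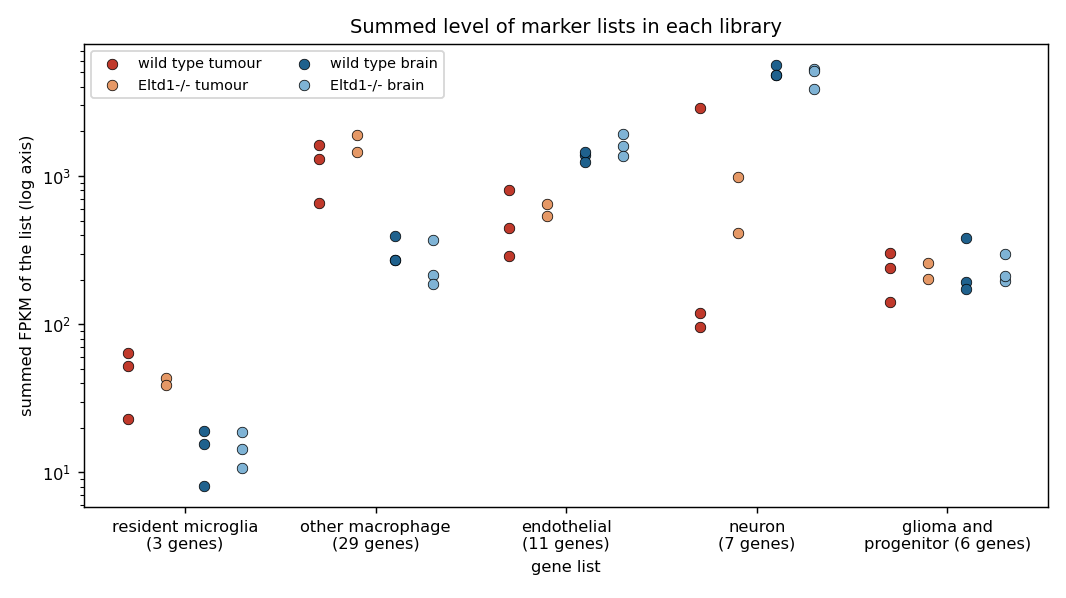
Summed FPKM of 5 marker lists in each library (points) on a log axis, coloured by group. The resident microglia sum and the sum of the other 29 macrophage genes are higher in every tumour than in any brain. Tmem119 supplies most of the resident sum in every tumour but wild type replicate 3, while P2ry12 and Cx3cr1 each overlap between tumour and brain. Endothelial and neuron sums are lower in every tumour, and the glioma and progenitor sums overlap.

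The chains of C1q, the recognition part of the first complement component, were higher in tumour in both genotypes for C1qa and C1qc. C1qa stood at 73.8, 22.7 and 31.2 FPKM in wild type tumours and 13.3, 11.8 and 6.64 FPKM in wild type brains, and at 134 and 102 FPKM in Eltd1-/- tumours and 5.48, 15.6 and 4.94 FPKM in Eltd1-/- brains. No tumour overlapped a brain, and the Eltd1-/- tumours were the highest. The means were 4.01-fold higher in wild type tumour (log2 difference 1.78, SE 0.56, limma adjusted p = 0.0441) and 13.6-fold higher in Eltd1-/- tumour (3.78, SE 0.62, adjusted p = 0.00452). With 1 library left out, the wild type fold ran from 2.54 (without tumour replicate 1) to 4.95 (without tumour replicate 2). The Eltd1-/- fold ran from 11.2 (without brain replicate 3) to 22.6 (without brain replicate 2).

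C1qc was at 23.3, 25.0 and 16.0 FPKM in wild type tumours against 0, 2.80 and 0.539 FPKM in brains, and at 40.3 and 37.8 FPKM against 0.191, 9.32 and 1.75 FPKM in Eltd1-/- mice. All tumours were above all brains, with log2 differences of 3.61 (SE 0.80, limma adjusted p = 0.0109) and 3.63 (SE 0.89, adjusted p = 0.0322). C1qb was at 36.5, 31.2 and 20.2 FPKM in wild type tumours and 0, 31.2 and 6.69 FPKM in wild type brains, where replicate 2 reached the tumour range. In Eltd1-/- mice C1qb was at 38.8 and 43.3 FPKM in tumours and 8.86, 7.38 and 2.88 FPKM in brains, without overlap. It did not pass in either genotype (2.23, SE 0.98, limma adjusted p = 0.133; 2.62, SE 1.10, adjusted p = 0.169). The 3 genes lie side by side on chromosome 4, between 136880126 and 136898844. The wild type call of C1qa was lost on leaving out any single library except wild type tumour replicates 2 and 3 and Eltd1-/- brain replicate 2 (adjusted p 0.0539 to 0.152), and its Eltd1-/- call without Eltd1-/- tumour replicate 1 (0.0834). The Eltd1-/- call of C1qc was lost without Eltd1-/- tumour replicate 1 (0.235) or 2 (0.152) and without Eltd1-/- brain replicate 1 (0.0977) or 3 (0.0908), and also with a pseudocount of 0.1 (0.141) or only the groups compared (0.0607).

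Among Fc receptors and ITAM adaptors, Fcgr1, the high-affinity receptor for IgG, had the highest mean level over all libraries. It was at 318, 276 and 48.6 FPKM in wild type tumours and 19.2, 23.9 and 14.8 FPKM in wild type brains, and at 421 and 251 FPKM in Eltd1-/- tumours and 37.3, 1.18 and 2.55 FPKM in Eltd1-/- brains. Every tumour was above every brain, with means 11.1-fold higher in wild type (log2 difference 3.04, SE 0.97, limma adjusted p = 0.0472) and 24.5-fold higher in Eltd1-/- mice (5.61, SE 1.08, adjusted p = 0.0104). The latter fold rested on 1 brain and was 180.0-fold without Eltd1-/- brain replicate 1 and 16.8-fold without Eltd1-/- brain replicate 2. With 1 library left out, the wild type fold ran from 8.40 (without tumour replicate 1) to 15.4 (without tumour replicate 3). The histone gene Hist2h2bb lies 12.7 kb from Fcgr1 on chromosome 3 and had the same order of tissues. It was at 358, 657 and 183 FPKM in wild type tumours, 285 and 286 FPKM in Eltd1-/- tumours, 0, 0 and 18.3 FPKM in wild type brains and 27.6, 0.785 and 4.28 FPKM in Eltd1-/- brains. Its part in the Fcgr1 values was not tested. The other 5 members of the group had at most 34.8 FPKM in any library. The wild type call of Fcgr1 was lost on leaving out any single library except wild type tumour replicate 3 and Eltd1-/- brain replicates 1 and 2 (adjusted p 0.0590 to 0.146), and its Eltd1-/- call without Eltd1-/- tumour replicate 1 (0.130) or 2 (0.0673).

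Trem2, a lipid-sensing receptor of microglia and macrophages, was at 7.30, 34.8 and 16.6 FPKM in wild type tumours and 0, 0 and 4.77 FPKM in wild type brains. It passed in wild type (log2 difference 3.27, SE 0.84, limma adjusted p = 0.0203). Across Eltd1-/- mice it was at 7.61 and 7.46 FPKM in tumours and 1.73, 0 and 0 FPKM in brains, without overlap and without passing (2.61, SE 0.94, adjusted p = 0.115). Removal of wild type tumour 2 (adjusted p = 0.0571) or of wild type brain 1 (0.0677) or 2 (0.0690) ended the wild type call. Tyrobp, the adaptor through which Trem2 signals, was at 5.12, 0 and 6.91 FPKM in wild type tumours, 0 and 3.67 FPKM in Eltd1-/- tumours, and 0 in 5 of 6 brains, and passed in neither genotype. Trem2 was highest in wild type tumour replicate 2, where Tyrobp was listed at 0.

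Fcer1g, the signalling chain shared by activating Fc receptors, was at 17.8 and 8.49 FPKM in Eltd1-/- tumours and listed at 0 in all 3 Eltd1-/- brains, and passed there (limma adjusted p = 0.0459). In wild type mice it was at 3.27, 0 and 0 FPKM in tumours and 0, 0 and 8.68 FPKM in brains, and the groups overlapped. The Eltd1-/- call was lost when either Eltd1-/- tumour or any Eltd1-/- brain was left out (adjusted p 0.110 to 0.332), and also with a pseudocount of 0.1 (0.0969), with no filter (0.0688) and with a filter of 5 FPKM (0.0511). Fcgr3, an activating low-affinity receptor, was at 9.73, 0 and 4.59 FPKM in wild type tumours and 13.5 and 20.3 FPKM in Eltd1-/- tumours, against 1.48 to 7.00 FPKM in the 6 brains. Fcgr2b, the inhibitory receptor, was at 0 to 11.9 FPKM in tumours and at most 1.03 FPKM in brains. Neither Fcgr3 nor Fcgr2b passed in either genotype.

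Of 8 genes for macrophage surface receptors and other marker proteins, Cd84 passed in wild type and Msr1 in Eltd1-/- mice. Csf1r, the receptor on which microglia depend, was measured above 0 in every library, at 24.7, 30.2 and 19.2 FPKM in wild type tumours and 12.3, 7.12 and 9.52 FPKM in wild type brains, and at 34.2 and 35.6 FPKM in Eltd1-/- tumours and 14.7, 7.59 and 10.1 FPKM in Eltd1-/- brains. Every tumour was above every brain, by 2.56-fold in wild type and 3.23-fold in Eltd1-/- means. The differences of 1.28 (SE 0.43, limma adjusted p = 0.0566) and 1.65 (SE 0.48, adjusted p = 0.0596) did not pass. Cd84, a homophilic receptor of the SLAM family, was at 7.12, 126 and 1.46 FPKM in wild type tumours and 0, 0 and 0.176 FPKM in wild type brains, so 1 tumour was far above the rest. It passed (3.69, SE 1.19, limma adjusted p = 0.0489), and the call was lost on leaving out any single library except wild type tumour replicate 3 (adjusted p 0.0572 to 0.105). Among Eltd1-/- mice Cd84 was at 9.37 and 11.8 FPKM in tumours and 0, 2.48 and 3.90 FPKM in brains and did not pass.

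Msr1, the class A scavenger receptor, was listed at 0 in all 6 brains. It was at 9.80 and 3.73 FPKM in Eltd1-/- tumours (limma adjusted p = 0.0249) and at 2.22, 2.97 and 0 FPKM in wild type tumours, where it did not pass (adjusted p = 0.161). Its Eltd1-/- call was lost when either Eltd1-/- tumour or any Eltd1-/- brain was left out (adjusted p 0.0690 to 0.269), and also with a pseudocount of 0.1 (0.0504). Aif1, the cytoplasmic protein known as Iba1, was at 14.3 and 9.72 FPKM in Eltd1-/- tumours and 7.54, 0 and 4.23 FPKM in wild type tumours, and at 0 in 5 of 6 brains. Ly86, a partner of a Toll-like receptor relative, was at 10.3 and 13.3 FPKM in Eltd1-/- tumours against 0 to 3.76 FPKM in wild type tumours and 0 to 3.21 FPKM in brains. Cd14, the lipopolysaccharide co-receptor, was at 1.39 to 34.4 FPKM in tumours and 0 to 7.56 FPKM in brains. Cd68, a glycoprotein of late endosomes, was at 0 to 15.9 FPKM in tumours and 0 to 2.34 FPKM in brains, and Mrc1, the mannose receptor, at 1.22 to 6.86 FPKM and 0 to 3.00 FPKM. None of Aif1, Ly86, Cd14, Cd68 and Mrc1 passed in either genotype.

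Of 3 lysosomal enzymes, Ctss and Lyz2 were higher in tumour in both genotypes and Lgmn passed in neither. Ctss, cathepsin S, which trims the invariant chain of MHC class II, was at 228, 262 and 146 FPKM in wild type tumours and 54.1, 17.2 and 14.5 FPKM in wild type brains, and at 439 and 246 FPKM in Eltd1-/- tumours and 35.4, 13.2 and 12.3 FPKM in Eltd1-/- brains. All tumours were above all brains, by 7.41-fold in wild type (log2 difference 3.05, SE 0.55, limma adjusted p = 0.00435) and 16.9-fold in Eltd1-/- mice (4.12, SE 0.61, adjusted p = 0.00280). Without brain replicate 1 of each genotype the folds were 13.4 and 26.9. The lowest folds with 1 library left out were 5.94 (without wild type brain replicate 3) and 12.1 (without Eltd1-/- tumour replicate 1). Lyz2, the lysozyme of myeloid cells, was at 107, 62.3 and 19.6 FPKM in wild type tumours and 3.28, 0 and 0.169 FPKM in wild type brains. Within Eltd1-/- mice Lyz2 was at 124 and 128 FPKM in tumours and 0.900, 1.92 and 6.45 FPKM in brains. The lowest tumour, wild type replicate 3, was still above the highest brain, with differences of 4.93 (SE 0.79, limma adjusted p = 0.00229) and 5.20 (SE 0.88, adjusted p = 0.00535). Without Eltd1-/- tumour replicate 1 the Eltd1-/- calls of Ctss (adjusted p = 0.0606) and Lyz2 (0.0761) were lost, as was that of Lyz2 without replicate 2 (0.0642), while the wild type calls of both held when any single library was left out.

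Lgmn, an asparagine-specific protease that is not limited to myeloid cells, was high in every library and differed little, at 89.2 ± 35.5 FPKM in wild type tumours and 67.2 ± 6.78 FPKM in wild type brains (SD, n = 3 and 3), where the groups overlapped. Across Eltd1-/- mice it was at 95.4 and 105 FPKM in tumours and 54.6, 40.0 and 39.4 FPKM in brains. It passed in neither genotype (0.34, SE 0.33, limma adjusted p = 0.515; 1.16, SE 0.37, adjusted p = 0.0842).

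**Figure D4:**
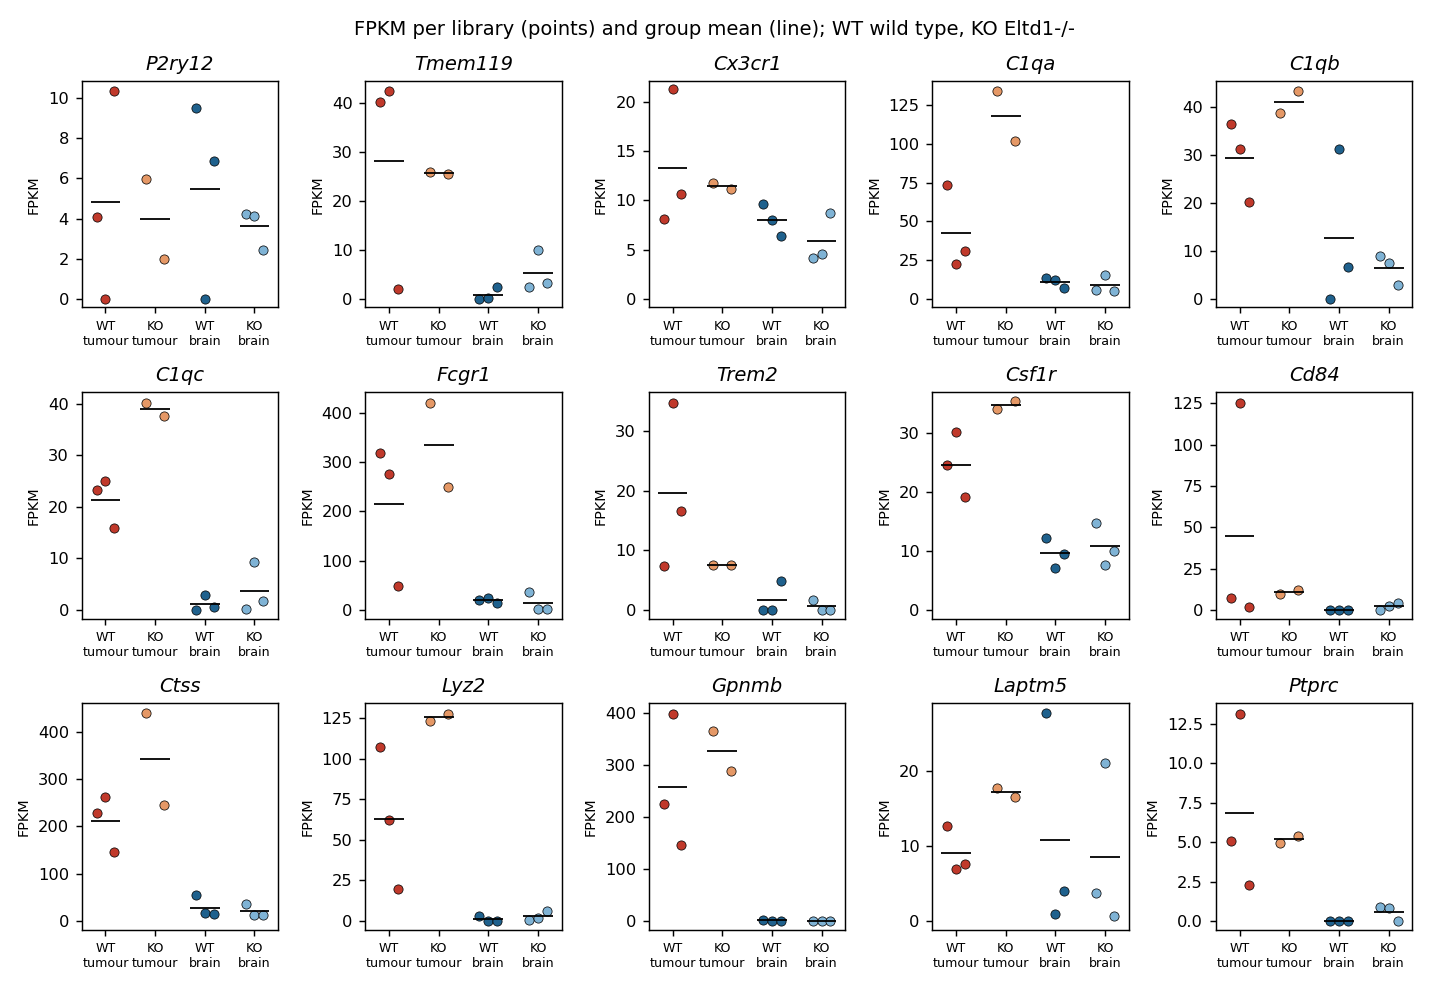
FPKM of 15 members in each library (points) with group means (lines), on axes that start at 0; WT is wild type and KO is Eltd1-/-. Gpnmb, Ctss and Lyz2 separate tumour from brain in both genotypes, P2ry12 and Laptm5 do not, and for Cd84 and Trem2 wild type tumour replicate 2 is the highest point.

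Secreted and lipid-handling members went different ways. Gpnmb was at 224, 398 and 147 FPKM in wild type tumours and 2.31, 0.180 and 0.705 FPKM in wild type brains, and at 364 and 288 FPKM in Eltd1-/- tumours and 0.213, 0.0828 and 0.982 FPKM in Eltd1-/- brains. The lowest tumour was far above the highest brain, and the means differed by 241-fold in wild type (log2 difference 6.98, SE 0.54, limma adjusted p = 7.21e-05) and 765-fold in Eltd1-/- mice (7.88, SE 0.60, adjusted p = 0.000255). These folds stand on brain means of 1.07 and 0.426 FPKM, and were 580.1-fold without wild type brain replicate 1 and 2204-fold without Eltd1-/- brain replicate 3. The lowest folds with 1 library left out were 170 and 545, each without brain replicate 2 of that genotype. Gpnmb passed under every setting tried in both genotypes. Apoe, the lipid carrier made by astrocytes and by activated microglia, was at 76.2, 126 and 76.3 FPKM in wild type tumours and 156, 69.7 and 98.0 FPKM in wild type brains, which overlapped (-0.18, SE 0.46, adjusted p = 0.819). Among Eltd1-/- mice it was at 47.1 and 31.98 FPKM in tumours and 198, 70.4 and 72.3 FPKM in brains, the only member with both tumours below all brains, and did not pass (-1.35, SE 0.51, limma adjusted p = 0.134). The 7 astrocyte markers, which belong to another source of Apoe, summed to 165 to 403 FPKM in tumours and 492 to 1125 FPKM in brains, and their part in the Apoe values was not tested. Spp1, osteopontin, was at 7.51 to 13.3 FPKM in tumours and 1.74 to 12.1 FPKM in brains and passed in neither genotype.

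Of 6 genes shared by most leukocytes, Ptprc passed, in wild type only. Ptprc, the phosphatase CD45, was at 5.08, 13.1 and 2.26 FPKM in wild type tumours and listed at 0 in all 3 wild type brains (limma adjusted p = 0.0120). Within Eltd1-/- mice it was at 4.96 and 5.39 FPKM in tumours and 0.868, 0.845 and 0 FPKM in brains, without overlap and without passing (2.03, SE 0.68, adjusted p = 0.0964). Laptm5, a lysosomal membrane protein of blood cells, was at 12.7, 6.91 and 7.66 FPKM in wild type tumours and 27.7, 0.900 and 4.01 FPKM in wild type brains, and at 17.8 and 16.5 FPKM in Eltd1-/- tumours and 3.68, 21.1 and 0.736 FPKM in Eltd1-/- brains. A single brain exceeded all tumours of its genotype in each case, and Laptm5 did not pass. Spi1, which encodes PU.1, was at 11.9, 10.3 and 0.723 FPKM in wild type tumours and 13.3, 24.5 and 7.22 FPKM in wild type brains (-1.19, SE 0.87, limma adjusted p = 0.365). Across Eltd1-/- mice Spi1 was at 17.3 and 5.83 FPKM in tumours and 0, 0 and 1.49 FPKM in brains (3.04, SE 0.97, adjusted p = 0.0815). Plek, the platelet and leukocyte protein pleckstrin, was at 1.60 to 20.7 FPKM in tumours and 0 to 6.41 FPKM in brains, and Cd52, a small leukocyte glycoprotein, at 0 to 10.6 FPKM and 0 to 11.4 FPKM. Cd53, a tetraspanin, was at 0, 0.754, 1.93, 0 and 0.817 FPKM in the tumours and at 0 in all brains.

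Other genes of the same cells were counted by list. Of all tested genes, 7.70% were called higher and 11.7% lower in wild type, and 4.79% and 2.29% in Eltd1-/- mice. Of 9 further homeostatic microglia genes, 0 passed in either direction in either genotype (limma), with 0 and 1 at an unadjusted p under 0.05. Siglech, Selplg and Slc2a5 were at most at 5.26 FPKM in any library. Of 9 other complement genes, 5 rose in wild type (C3, C4b, C1ra, C1s1 and Serping1), 1 fell and 3 did not pass. Among Eltd1-/- mice 6 rose, with Cfb added, and 1 fell. C4b was at 153, 136 and 103 FPKM in wild type tumours and 7.69, 15.8 and 2.27 FPKM in wild type brains (log2 difference 4.06, SE 0.60, limma adjusted p = 0.00151). C1s1, the protease partner of C1q, was at 27.7 to 126 FPKM in the 5 tumours and at 0 in 5 of 6 brains, and C3 at 28.2 to 44.2 FPKM against at most 1.09 FPKM. These complement genes are also made by astrocytes, endothelial and tumour cells.

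Of 16 phagocytic and lipid-handling genes, 4 rose (Axl, Cd63, Lgals3 and Grn), 1 fell (Lamp1) and 11 did not pass in wild type, and 7 rose and 0 fell in Eltd1-/- mice. Axl, a receptor for apoptotic cells, was at 114 to 232 FPKM in tumours and 6.28 to 29.1 FPKM in brains (3.49, SE 0.48, limma adjusted p = 0.00101 in wild type). Lgals3, galectin-3, was at 10.9 to 64.9 FPKM in tumours and listed at 0 in all brains, and Grn, progranulin, at 110 to 302 FPKM against 25.1 to 50.4 FPKM. Of 9 myeloid transcription factors, Runx1 rose in both genotypes, at 4.08 to 6.13 FPKM in tumours and at most 0.795 FPKM in brains, and Mef2c, which neurons and endothelial cells also use, fell in wild type (-2.93, SE 0.57, limma adjusted p = 0.00634). Of the 2 ligands of the CSF1 receptor neither passed, with Csf1 at 8.12 to 50.4 FPKM in tumours and 2.02 to 16.0 FPKM in brains, and Il34 at 0 to 10.7 FPKM and 3.44 to 28.0 FPKM. Of 13 Fc receptor signalling genes, 12 were tested. In wild type Inpp5d, a lipid phosphatase, rose and Sirpa, an inhibitory receptor also borne by neurons, fell (-2.28, SE 0.42, limma adjusted p = 0.00475), and in Eltd1-/- mice Fcgr4, a mouse IgG receptor, rose.

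Genes of blood monocytes and of macrophages outside the brain parenchyma were counted next. The 10 monocyte genes summed to 13.02 to 25.7 FPKM in wild type tumours, 51.0 and 56.0 FPKM in Eltd1-/- tumours and 2.75 to 15.6 FPKM in brains, and 6 of them could be tested. Itga4, the integrin by which monocytes and lymphocytes leave vessels, rose in both genotypes, at 11.4 to 42.9 FPKM in tumours and 0.904 to 6.78 FPKM in brains (2.30, SE 0.65, limma adjusted p = 0.0293 in wild type; 3.32, SE 0.72, adjusted p = 0.0195 in Eltd1-/-), and Plac8 rose in Eltd1-/- mice. Ccr2, the chemokine receptor of inflammatory monocytes, was at 0 to 1.63 FPKM in tumours and at 0 in all brains, and Ly6c2 and Chil3 were at 0 in all tumours. Of 8 genes of border-associated macrophages, 5 were tested and 0 passed in either genotype (0 and 1 at an unadjusted p under 0.05), with Cd163, Pf4 and Cbr2 at 0 in all tumours. Of 8 activation genes, 5 were tested, and 0 of them passed in wild type or between genotypes in tumour. Arg1, arginase of alternatively activated macrophages, was at 8.32 and 38.7 FPKM and Il1b at 3.64 and 5.94 FPKM in Eltd1-/- tumours, both at 0 in all brains (limma adjusted p = 0.00878 and 0.0169). Both calls set the Eltd1-/- tumours against brains at 0, so their size depends on the pseudocount. Of 8 chemokines, 3 were tested. Cxcl10 passed in Eltd1-/- mice, and Cx3cl1, the neuronal ligand of Cx3cr1, fell in wild type (-4.08, SE 1.03, limma adjusted p = 0.0189).

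Markers of other cell types were set beside these counts. Of 8 granulocyte markers, 6 (S100a8, S100a9, Ly6g, Camp, Ngp and Mmp8) were listed at 0 in all 11 libraries. The 1 tested gene, Ltf, the iron-binding lactotransferrin, was at 0 to 25.5 FPKM in tumours and 0 to 170 FPKM in brains, highest in wild type brain replicate 2, and did not pass. Of 12 lymphocyte markers, 4 were tested and Lck, a T cell kinase, rose in both genotypes, at 9.04 to 24.5 FPKM in tumours and 0 to 1.55 FPKM in brains, with Cd3e at 0 in all libraries. The list summed to 17.9 to 48.3 FPKM in tumours and 4.10 to 27.0 FPKM in brains. Of the 4 tested lymphocyte markers, log2 differences were positive for 3 and negative for 0 in wild type, and for 2 and 2 in Eltd1-/- mice. Of 8 dendritic cell markers, 5 were tested and Itgax, an integrin also of activated microglia, rose in both, at 6.25 to 22.8 FPKM against at most 0.501 FPKM. Of 11 endothelial markers, 6 fell in wild type and 3 in Eltd1-/- tumours and 0 rose, where 11.7% and 2.29% of all genes were called lower. All 11 had negative log2 differences in both genotypes. Tumours lay wholly below brains for 9 in wild type and 11 in Eltd1-/-, against 19.8% and 28.6% of all genes. Of 6 glioma and progenitor markers, 3 rose in each genotype, Olig2 and Cd44 in both, and 1 fell in wild type. Of 7 neuron markers, 6 fell in wild type and 1 in Eltd1-/-, and of 6 oligodendrocyte markers, 3 in each. All 7 neuron markers had negative log2 differences in both genotypes. Tumours lay wholly below brains for 6 of them in wild type and 7 in Eltd1-/-. Of 8 mural markers, Cspg4 rose in both. Of 7 astrocyte markers, Gfap rose and 3 fell in wild type, and 0 passed in Eltd1-/- (2 at an unadjusted p under 0.05). Of 5 erythrocyte markers, 3 were tested and 0 passed (1 at an unadjusted p under 0.05 in each genotype). The part of these cell types in the macrophage gene values was not tested.

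Genotype was compared within each tissue to ask whether loss of Eltd1 changed the myeloid transcripts. In tumour, 0 of the 32 members passed, where limma called 0.0192% of all genes. At an unadjusted p under 0.05 there were 7 members, against 3.11% of all genes, and the members' median log2 difference was 0.61 against 0.16 over all genes. With both Eltd1-/- tumours above all 3 wild type tumours there were 13 members, where 10.8% of all genes lay so, and 1 (Apoe) was below, where 4.61% did. The members with the smallest p were Fcer1g (3.04, SE 1.00), C1qa (1.62, SE 0.62), Msr1 (1.61, SE 0.65) and Ly86 (2.26, SE 0.93), higher in Eltd1-/- tumours and each at an adjusted p of 1.00. C1qa was at 134 and 102 FPKM in Eltd1-/- tumours and 73.8, 22.7 and 31.2 FPKM in wild type tumours. Fcer1g and Ly86 were listed at 0 in wild type tumour replicate 2, the library with the most zeros. So were Fcgr3 and Cd52, which also had an unadjusted p under 0.05. Among the tumours, wild type replicate 3, the one with the most neuronal RNA, held the lowest value of 15 members. Wild type replicate 2 held the lowest of 8 and the highest of 10, and each Eltd1-/- tumour the lowest of 1 and the highest of 9. The lowest counts leave out ties, which were Fcer1g, Tyrobp, Cd53 and Cd52, each at 0 in wild type replicate 2 and another tumour. The part of wild type replicates 2 and 3 in the genotype differences was not tested. With wild type tumour replicates 2 and 3 both left out, 0 members passed and 19 genes did in all.

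In brain, 0 of the 32 members passed, where limma called 0.00641% of all genes, and the median was 0.05 against 0.02. At an unadjusted p under 0.05 there was 1 member, against 4.35% of all genes. It was Spi1, at 0, 0 and 1.49 FPKM in Eltd1-/- brains and 13.3, 24.5 and 7.22 FPKM in wild type brains (-3.41, SE 0.87, adjusted p = 1.00). Next by p were Tmem119 (1.79, SE 1.00), Lgmn (-0.59, SE 0.33) and Fcgr1 (-1.58, SE 0.97), each at an adjusted p of 1.00. Spi1 and Lgmn were the 2 members with all Eltd1-/- brains below all wild type brains, where 3.84% of all genes lay so, and 0 were above, where 4.68% did.

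The difference of the tissue effects between genotypes passed for 0 members, where limma called 0.00641% of all genes, and 4 members had an unadjusted p under 0.05 against 3.18% of all genes. These were Spi1 (4.23, SE 1.30), Fcer1g (4.14, SE 1.35), Cd52 (3.59, SE 1.43) and C1qa (2.00, SE 0.83), all with the larger tumour minus brain difference in Eltd1-/- mice and an adjusted p of 1.00. Fcer1g and Cd52 were listed at 0 in all Eltd1-/- brains, so their differences depend on the pseudocount. The genotype comparisons share libraries with the tissue comparisons, so the values of the difference of tissue effects are not separate evidence. With 2 Eltd1-/- tumours, the SE of the members' tumour genotype difference ran from 0.37 for Lgmn to 1.33 for Cd84 on the log2 scale, and a p that missed the threshold does not show that the genotypes were alike.

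**Figure D5:**
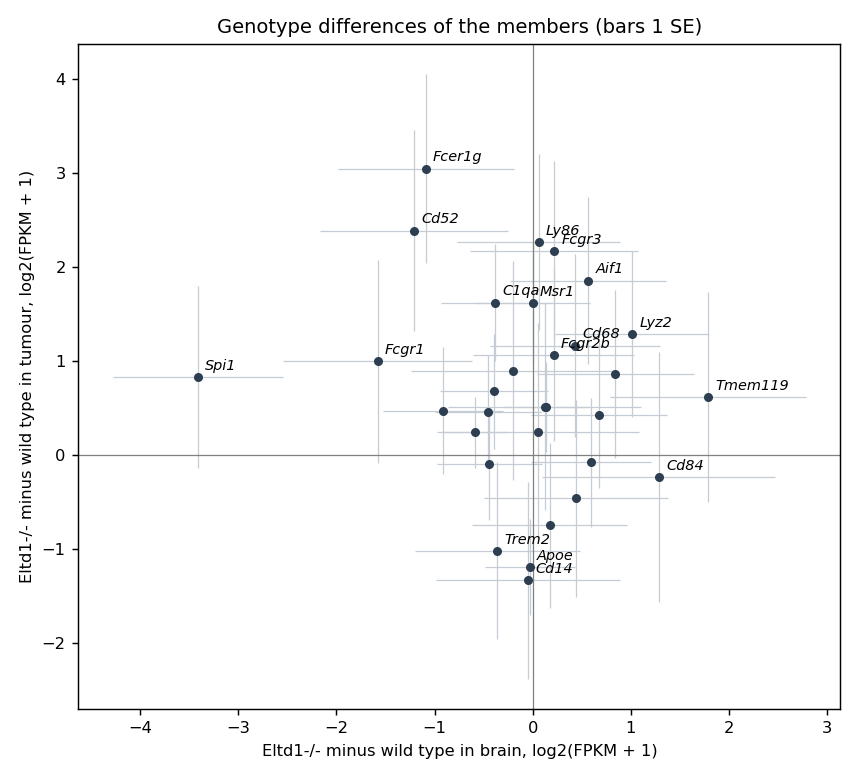
Eltd1-/- minus wild type differences of the 31 tested members on the log2(FPKM + 1) scale, in brain (x axis) and in tumour (y axis), with bars of 1 SE. Fcer1g at 3.04 in tumour and Spi1 at -3.41 in brain lie farthest out, and 0 members passed in either tissue.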

How the data were processed

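FPKM was measured in 11 libraries of ribosome-bound RNA. The deposited values are FPKM per gene, per the file headers, and the authors used TopHat2 2.1.1, Cufflinks 2.2.1 and GRCm38, per the submitters' processing notes. Which annotation was used, and whether strand was, is not stated in these sources. The RNA was depleted of ribosomal RNA and prepared with a stranded kit, per the labels' protocols. Entries of 211 repeated symbols (482 of 46073) were summed, leaving 45802 genes. No read counts are given, and low values under 5 FPKM shared no step (0.173% to 1.29% of genes on the commonest ratio in 55 pairs of libraries, within 0.001 on the log2 scale), so depth and counting error are unknown. P-values measure the spread between mouse samples.

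Limma 3.58.1 (R 4.3.3) was fitted to log2(FPKM + 1) of the 15604 genes with at least 1 FPKM in at least 2 libraries, with 4 group means and 7 residual degrees of freedom (eBayes with trend). It was checked on simulated normal values with shifts placed only in genes of higher mean, which does not test genes near 0. Tests were two-sided, with Benjamini-Hochberg adjustment over all genes within each of 5 contrasts and a threshold of 0.05. Fold changes on this scale understate low genes. In the tissue comparisons of the main fit, values for genes at 0 throughout a group are given per library only. Elsewhere the log2 values of such genes depend on the pseudocount. The log2 differences are not rescaled.

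All members are accounted for. Library values are given in full for the resident and C1q members and, in the other subgroups, for the gene with the highest mean and the gene with the largest wild type difference. In the genotype contrasts the 4 members with the smallest p are named, and in each other list up to 3 genes by smallest wild type p, with others named after their values were seen. Members and lists were chosen with earlier results of these data known. Replicate numbers were given in accession order and pair nothing. A fit that leaves 1 library in a group assumes that it varies like the others. Alternatives were a pseudocount of 0.1, no filter or 5 FPKM, upper quartile or quantile scaling, library weights, a robust trend, only the groups compared, and leaving out libraries. Some genes of the other lists are counted but not reported by name here. Calls of single genes in these lists are given for the main fit only, so their hold without a library is not shown.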

Additional observations from a re-analysis of the deposited data

How the results depend on the processing

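No paired analysis was possible because the labels give no replicate number shared between groups. Wild type tumour against brain gave 10 higher members and 3024 genes, 16 and 4937 with library weights, and 3 and 614 with only the groups compared. Leaving out 1 library gave 5 to 12 members (5 without wild type brain replicate 1, 6 when either wild type brain replicate 2 or tumour replicate 1 of that genotype was removed) and 1817 to 3887 genes. In Eltd1-/- the 8 members and 1105 genes became 5 and 710 with a pseudocount of 0.1, 13 and 1822 with quantile normalization, 20 (with 1 lower, Apoe) and 4126 with library weights, 16 and 2803 with only the groups compared, and 15 and 2756 without wild type tumour replicates 2 and 3. Leaving out 1 library gave 1 to 14 members (1 without Eltd1-/- tumour replicate 1, 3 without replicate 2, 14 without wild type tumour replicate 2, and 5 without Eltd1-/- brain replicate 1 or 3) and 147 to 2006 genes. No member was called lower in wild type under any setting. Of all wild type calls 39.7% were higher, against 51.8% with upper quartile scaling and 52.2% with quantile normalization, and the all-gene median log2 difference was -0.26, -0.10 and 0.01 in turn.

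In tumour, genotype gave 3 genes in all, 14 with no filter, 1 with a filter of 5 FPKM or quantile normalization, 62 with library weights, 0 with only the groups compared, 19 without wild type tumour replicates 2 and 3, and 0 to 29 without 1 library. In brain it gave 1 gene, and 0 with a pseudocount of 0.1, a filter of 5 FPKM, only the groups compared or without wild type tumour replicates 2 and 3, and 0 to 4 without 1 library. The difference of the tissue effects gave 1 gene, 0 with no filter or quantile normalization, 4 with library weights, 8 without wild type tumour replicates 2 and 3, and 0 to 13 without 1 library. 

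Members that did not pass changed sign as follows on the log2 scale. In wild type, Apoe was 0.0421 with upper quartile scaling. P2ry12 (0.32) and Fcgr3 (0.35) turned with quantile normalization, and Fcgr3 (1.27), Spp1 (-0.17) and Cd52 (1.20) with library weights. Without wild type tumour replicates 2 and 3 the values were P2ry12 0.22, Fcer1g 1.00, Fcgr3 1.18, Spp1 -0.0229 and Cd52 1.05. Over all fits without 1 library, P2ry12 ran from -1.23 to 0.80, Fcer1g from -1.09 to 0.70, Fcgr3 from -0.999 to 0.71, Apoe from -0.45 to 0.12, Spp1 from -0.21 to 0.24, Cd52 from -1.21 to 0.75 and Laptm5 from -0.29 to 1.66. In Eltd1-/-, P2ry12 was -0.0168 with a pseudocount of 0.1, and without 1 library P2ry12 ran from -0.60 to 0.62, Tyrobp from -0.17 to 2.05 and Cd14 from -0.21 to 2.05. The causes were not tested.

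Beyond single libraries left out, C1qc lost its wild type call with only the groups compared (adjusted p = 0.0529) and without wild type tumour replicates 2 and 3 (0.0694), and Ptprc with only the groups compared (0.0726). The wild type calls of Tmem119 and C1qa were each lost under 3 such settings, those of Trem2 and Fcgr1 under 4 and that of Cd84 under 5, while Gpnmb, Lyz2 and Ctss kept theirs under every setting run. Unknown depth leaves members at a few FPKM without a counting error.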
